A study of Mus musculus with 30 samples.

Results

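The genes described here make, regulate or move sterols and fatty acids. They are 41 of the 35972 genes present in both RNA tables, picked by symbol: 8 genes from acetyl-CoA to the isoprenoids, 11 from squalene to cholesterol, 5 that control the SREBP transcription factors, 8 of sterol transport with its LXR receptors, and 9 of fatty acid and lipid synthesis. The 41 genes were named by function but selected on results of the RNA comparisons reported below, which were in view when the list was drawn up. Their counts and medians therefore describe the list and are no test of it. All 41 were present in both tables and all had a mean normalised count of at least 10, so none was lost to the filter on low values.

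Primary fibroblasts from the tail tendon of wildtype mice were grown with 10% serum and treated in medium with 0.1% serum. RNA was measured in 9 libraries: 3 received DMSO as the solvent control, 3 received 10 µM blebbistatin and 3 received 30 µM Y27632. Y27632 is a small-molecule kinase inhibitor, and blebbistatin inhibits non-muscle myosin II. Accessible chromatin was assayed by ATAC in 3 libraries of each of the same 3 treatments, and 12 further genomic DNA libraries, 3 per group, carried doxycycline at 10 ng/mL or none, each with blebbistatin at 10 µM or without it. The labels do not say what doxycycline induced, how long any treatment lasted, or whether the 3 libraries of a group came from separate cultures or animals, so p-values measure the spread between these libraries, which may be technical.

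As background, cells build cholesterol from acetyl-CoA through mevalonate, isoprenoid diphosphates, squalene and lanosterol. The genes of this route are switched on by SREBP2 (Srebf2), and many genes of fatty acid synthesis by SREBP1 (Srebf1). Both factors are made as membrane proteins that the escort protein Scap carries from the endoplasmic reticulum to the Golgi for cleavage when sterols are low, while Insig1 and Insig2 hold Scap back when sterols are high. Oxysterols activate the nuclear receptors LXR alpha (Nr1h3) and LXR beta (Nr1h2), which raise the sterol exporters Abca1 and Abcg1, the E3 ligase Mylip and Srebf1.

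Promoter sequences were available for 33 of the 41 genes, each window running from 250 bases before to 50 bases after an annotated start (RefSeq, build GRCm38.p6). Below, 6 of them are printed because they show genes that fell, 3 of the cholesterol route (Hmgcs1, Msmo1 and Cyp51) with Insig1 of SREBP control and Fasn of fatty acid synthesis, beside Abca1, which rose. Capitals mark matches to the sterol regulatory element in its stricter (TCACNCCAC) or looser (TCACNNCA) form and to the CCAAT box, each on either strand. The first window, of Hmgcs1 at chr13:119690101-119690400 (plus strand), was the only member window with the stricter element, 137 bases before the start, and it held 4 CCAAT boxes. The Msmo1 window, at chr8:64733529-64733828 (minus strand), held the looser element 177 and 92 bases before the start, the nearer one sharing a base with a CCAAT box. The Cyp51 window, at chr5:4104648-4104947 (minus strand), held 1 looser element and 1 CCAAT box. The windows of Insig1, at chr5:28071162-28071461 (plus strand), and of Fasn, at chr11:120824498-120824797 (minus strand), held CCAAT boxes without either form of the element. The Abca1 window, at chr4:53159846-53160145 (minus strand), held neither. These 6 do not stand for the other members. Insig2 was called higher, and a window of it held the looser element and CCAAT boxes. Npc2 and Mylip, also called higher, had CCAAT boxes. Idi1 and Lss fell without either form of the element in their windows, and Elovl6 fell with neither motif.
Hmgcs1: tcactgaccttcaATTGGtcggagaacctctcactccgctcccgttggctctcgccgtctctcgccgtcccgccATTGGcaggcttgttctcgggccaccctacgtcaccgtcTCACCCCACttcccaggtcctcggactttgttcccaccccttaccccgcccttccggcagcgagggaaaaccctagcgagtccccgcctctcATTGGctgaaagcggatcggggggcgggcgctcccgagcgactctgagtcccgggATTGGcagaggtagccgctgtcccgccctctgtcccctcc
Msmo1: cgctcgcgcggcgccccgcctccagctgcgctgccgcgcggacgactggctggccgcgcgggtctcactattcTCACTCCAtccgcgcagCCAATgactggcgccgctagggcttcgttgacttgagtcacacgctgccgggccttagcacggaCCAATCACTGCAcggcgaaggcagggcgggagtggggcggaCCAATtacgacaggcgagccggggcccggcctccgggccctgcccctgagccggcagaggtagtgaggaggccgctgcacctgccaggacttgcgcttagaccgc
Cyp51: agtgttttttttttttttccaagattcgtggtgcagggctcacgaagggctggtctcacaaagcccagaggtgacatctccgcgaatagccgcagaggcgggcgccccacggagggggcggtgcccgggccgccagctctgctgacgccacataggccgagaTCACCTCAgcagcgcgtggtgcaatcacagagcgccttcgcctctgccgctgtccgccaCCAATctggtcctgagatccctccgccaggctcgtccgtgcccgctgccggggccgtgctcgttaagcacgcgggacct
Insig1: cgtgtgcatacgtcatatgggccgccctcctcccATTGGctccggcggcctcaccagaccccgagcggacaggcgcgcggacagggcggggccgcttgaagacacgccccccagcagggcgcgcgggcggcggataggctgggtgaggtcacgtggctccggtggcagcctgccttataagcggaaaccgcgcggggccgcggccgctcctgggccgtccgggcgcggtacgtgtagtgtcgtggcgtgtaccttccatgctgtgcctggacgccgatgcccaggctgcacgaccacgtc
Fasn: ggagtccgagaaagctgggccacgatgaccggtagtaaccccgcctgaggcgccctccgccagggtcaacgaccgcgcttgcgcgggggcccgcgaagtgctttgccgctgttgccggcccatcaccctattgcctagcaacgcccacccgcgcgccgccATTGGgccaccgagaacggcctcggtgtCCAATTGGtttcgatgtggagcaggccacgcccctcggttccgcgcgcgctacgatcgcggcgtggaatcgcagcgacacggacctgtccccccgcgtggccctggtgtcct
Abca1: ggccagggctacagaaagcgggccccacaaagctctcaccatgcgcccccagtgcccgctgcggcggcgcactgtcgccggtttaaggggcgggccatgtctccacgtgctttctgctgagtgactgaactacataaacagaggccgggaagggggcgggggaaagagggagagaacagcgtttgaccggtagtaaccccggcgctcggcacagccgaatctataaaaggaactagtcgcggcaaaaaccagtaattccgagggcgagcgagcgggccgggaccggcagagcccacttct

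The stricter element stood in 1 of 33 member genes (3.0%) and in 1.4% of 27025 genes with a window. The looser form, searched after the stricter one had been counted, stood in 10 of 33 (30.3%) and in 15.7% of all genes. The CCAAT box, the binding motif of the factor NF-Y, stood in 25 of 33 (75.8%) against 41.1% of all genes and 42.5% of the 11068 genes with a window that were also tested in the RNA data. The E-box CACGTG stood in 6 of 33 (18.2%) against 11.5% of tested genes, and the GC box GGGCGG in 25 of 33 (75.8%) against 66.6% of tested genes. Of the 25 genes with a CCAAT box, 22 were called lower and 3 higher with blebbistatin, with a median log2 change of -0.88. Of the 8 without one, 4 were called lower and 2 higher, with a median of -0.19. With Y27632 these medians were -0.40 and -0.07. Over all tested genes, 26.9% were called lower and 26.1% higher with blebbistatin. The same split was not counted over all tested genes, so it is no result about the motif. It also follows role, since the 8 without a box were Abca1, Scap, Nr1h2, Nr1h3, Acat2, Elovl6, Acaca and Lpin1. Of the other motifs, the medians with and without a match were -0.93 and -0.66 with blebbistatin for the looser element, -0.83 and -0.63 for the GC box, and -0.90 and -0.80 for the E-box. With Y27632 the E-box order was the other way, -0.19 with and -0.33 without. The CCAAT split was the widest with blebbistatin of these 4 motifs, and none of the splits was tested. These are matches of letters in a fixed window and say nothing of binding.

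Reads in genes numbered 23375386 to 37061737 per library. All 10 tendon and fibroblast markers, Scx, Tnmd, Mkx, Fmod, Thbs4, Col1a1, Col1a2, Col3a1, Dcn and Pdgfra, were present in every group. Their summed normalised count was 811271 to 946792, made up mainly of Col1a1, Col1a2 and Col3a1. The summed markers of endothelium, epidermis and skeletal muscle stayed between 8.73 and 124 in every library. Those of macrophages were higher, at 6137 to 10196, as were those of adipocytes, at 6723 to 14038, and both are described below. Values below are normalised counts, that is, counts divided by the size factor of their library. Each treatment was compared with DMSO within its own table by limma on log2(normalised count + 1), and a gene was called at a Benjamini-Hochberg adjusted p under 0.05 over all genes tested. Both comparisons use the same 3 DMSO libraries, whose values differ a little between the tables because the size factors differ.

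With blebbistatin, most genes of sterol and fatty acid synthesis were lower than in DMSO and those of sterol export were higher. Of the 41 members, 32 were called lower and 7 higher, and 2 were not called. Over all 14882 genes tested, limma called 53.0%, with 26.9% lower and 26.1% higher. The median log2 change was -0.82 over the members and 0.00 over all genes tested. All 3 blebbistatin libraries lay below all 3 DMSO libraries for 32 members and above them for 7, against 30.2% and 30.0% of all genes tested. For 13 members the blebbistatin mean was at or under 50% of the DMSO mean. The matching share of all tested genes was not counted, so the 13 are no result about the members. In bulk RNA, fewer cells of a type and less RNA per cell cannot be told apart.

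With Y27632, most synthesis genes were also called lower, Ggps1 and Acaca being the exceptions, and the exporters Abca1 and Abcg1 higher. Of the 41 members, 30 were called lower, 7 higher and 4 not called, where limma called 35.9% of the 14833 genes tested, 17.8% lower and 18.1% higher. The median log2 change was -0.30 over the members and 0.00 over all genes. The 3 libraries lay below all DMSO libraries for 30 members and above them for 7, against 23.7% and 24.4% of all genes tested. No member fell to 50% of DMSO, and the share of all genes that did was not counted. Every member called with Y27632 was called in the same direction with blebbistatin, 30 lower and 7 higher. The shared DMSO libraries tie these directions together. The share of all tested genes called alike with both agents was not counted, so this agreement is no result about the members.

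**Figure D1:**
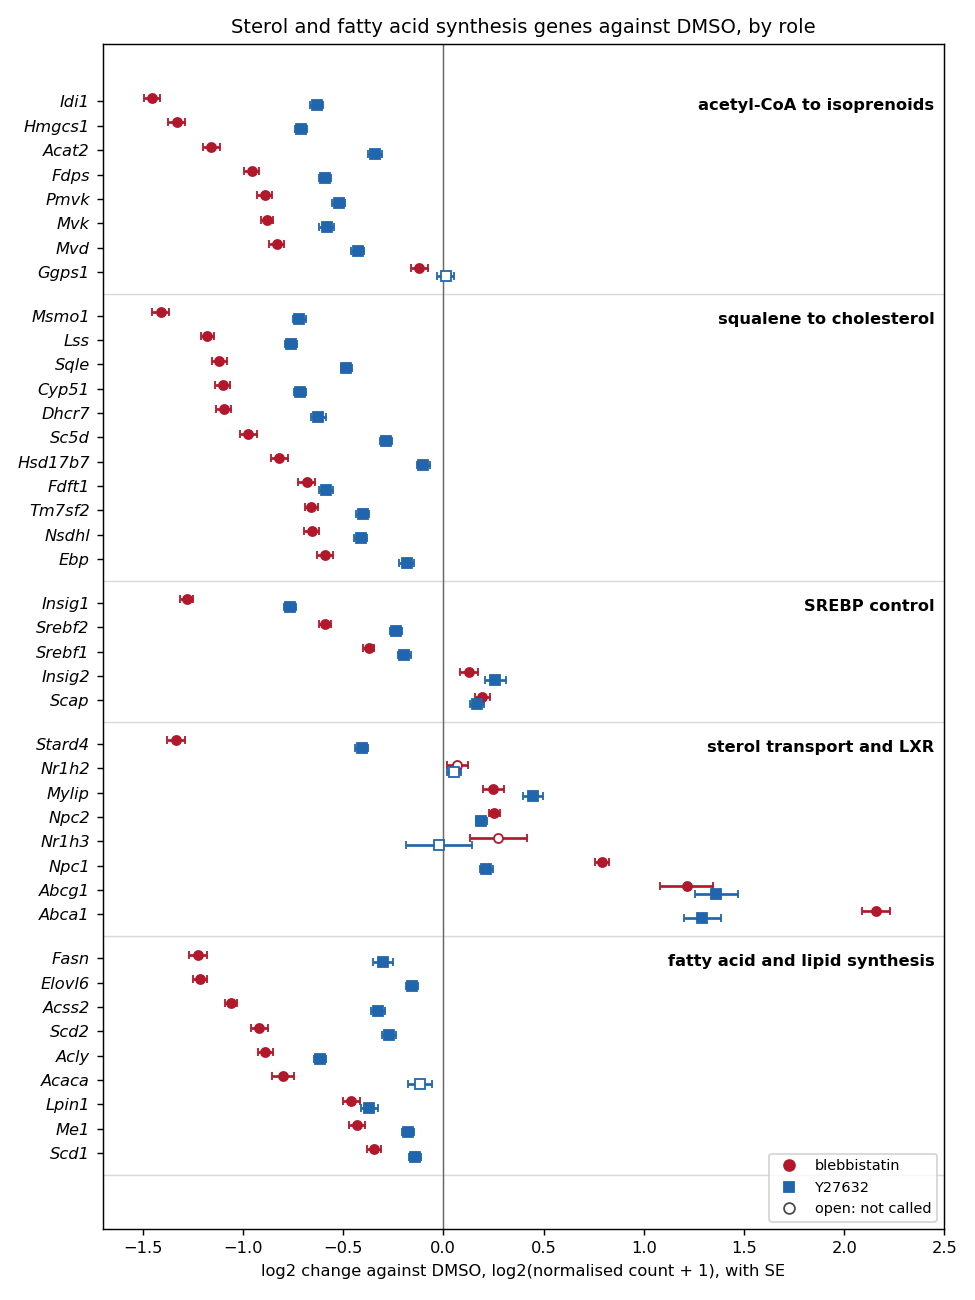
Log2 change against DMSO (x axis, on log2(normalised count + 1)) of the 41 genes (y axis), grouped by role, for blebbistatin (red circles) and Y27632 (blue squares), with the standard error; open symbols were not called by limma. All synthesis genes lie left of 0 with blebbistatin, down to -1.45 for Idi1, and all but Ggps1 (0.01) with Y27632, and the exporters Abca1 and Abcg1 lie right of 0.

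In the first segment, from acetyl-CoA to the isoprenoids, 8 of 8 genes were called lower with blebbistatin (median log2 change -0.92) and 7 of 8 with Y27632 (median -0.55). Over all tested genes, 26.9% were called lower with blebbistatin and 17.8% with Y27632. Acat2, the thiolase that makes acetoacetyl-CoA, had 11784, 11503 and 12131 normalised counts in DMSO and 5555, 4949 and 5387 with blebbistatin. In the Y27632 table it had 9337, 9616 and 10149 against a DMSO mean of 12266. It thus fell to 44.9% of DMSO with blebbistatin and to 79.1% with Y27632, log2 changes of -1.16 (SE 0.04, limma adjusted p = 3.84e-10) and -0.34 (SE 0.04, adjusted p = 1.04e-05). Hmgcs1, the HMG-CoA synthase of the next step, had 28197, 28827 and 29715 in DMSO and 11418, 10831 and 12269 with blebbistatin. With Y27632 it had 18461, 18503 and 18153 against a DMSO mean of 30040.1. The 3 groups did not overlap for either gene, and Hmgcs1 changed by -1.33 (SE 0.04) with blebbistatin and -0.71 (SE 0.03) with Y27632.

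The 3 enzymes that turn mevalonate into isopentenyl diphosphate fell by similar amounts. Mvk, mevalonate kinase, had 4625, 4564 and 4515 in DMSO, 2504, 2476 and 2464 with blebbistatin, and 3085, 3346 and 3083 with Y27632 against a DMSO mean of 4746. Pmvk, phosphomevalonate kinase, had 4153, 4151 and 4124 in DMSO, 2202, 2165 and 2339 with blebbistatin, and 2959, 3100.2 and 2944 with Y27632 against 4304. Mvd, the decarboxylase, had 8200.3, 7831 and 7827, then 4676, 4249 and 4485 with blebbistatin, and 6017, 6348 and 6070.1 with Y27632 against 8263. Their log2 changes were -0.88, -0.89 and -0.83 with blebbistatin and -0.58, -0.52 and -0.43 with Y27632, in that order.

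Idi1, the isomerase that makes dimethylallyl diphosphate, had the largest fall of any member with blebbistatin. Its counts were 3966, 3844 and 4023 in DMSO and 1447, 1369.8 and 1507 with blebbistatin, a mean of 3944 ± 91.2 against 1441 ± 68.7 (SD, n = 3). They were 2666, 2641 and 2625 with Y27632 against a DMSO mean of 4098. The log2 change was -1.45 (SE 0.04, limma adjusted p = 5.5e-11) with blebbistatin and -0.63 (SE 0.03, adjusted p = 1.34e-08) with Y27632. Fdps, the farnesyl diphosphate synthase at the branch point to squalene, had 18704, 17934 and 18411 in DMSO and 9531, 8982 and 9908 with blebbistatin, and 12497, 12916 and 12586 with Y27632 against 19065. Fdps stood at 51.6% and 66.4% of DMSO.

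Ggps1, which leads away from sterols by making geranylgeranyl diphosphate for protein prenylation, moved least of the 8. It had 1128, 1181 and 1169 normalised counts in DMSO, 1069.9, 1051 and 1079 with blebbistatin, and 1225, 1232 and 1189 with Y27632 against 1205. The blebbistatin libraries lay below DMSO by -0.12 (SE 0.04, limma adjusted p = 0.0307), and the Y27632 libraries overlapped with it, at 0.01 (SE 0.04, adjusted p = 0.845). The blebbistatin call was lost without DMSO replicate 2 (adjusted p = 0.101) or 3 (0.0722), without blebbistatin replicate 1 (0.0659) or 2 (0.0793), and with DESeq2 (0.112).

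From squalene to cholesterol, all 11 genes were called lower with blebbistatin, by a median of -0.97, and all 11 with Y27632, by a median of -0.48. Among all tested genes, 26.9% and 17.8% were called lower. Fdft1, squalene synthase, had 7464, 7381 and 7807 in DMSO and 4778, 4389.6 and 4969.7 with blebbistatin, and 5082, 5424 and 5180.2 with Y27632 against a DMSO mean of 7845. Its log2 changes were -0.68 with blebbistatin and -0.59 with Y27632. Sqle, squalene epoxidase, a rate-limiting enzyme of the route, had 11413, 11364 and 11542 in DMSO and 5321, 4989 and 5526 with blebbistatin, and 8511, 8579 and 8396 with Y27632 against 11886. Lss, which closes the rings to give lanosterol, had 14268, 13999.9 and 14062 in DMSO and 6301, 5998 and 6431 with blebbistatin, and 8532, 8957 and 8497 with Y27632 against 14660.0. Sqle stood at 46.1% of DMSO with blebbistatin and 71.5% with Y27632, and Lss at 44.2% and 59.1%; the groups did not overlap.

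The enzymes that strip the methyl groups of lanosterol were all lower, Msmo1 the most. Cyp51, the lanosterol demethylase, had 20367, 20675 and 21321 in DMSO and 9723, 9186 and 10183 with blebbistatin, and 13113, 13425 and 12918 with Y27632 against 21598. Msmo1, the methylsterol monooxygenase whose promoter is printed above, had 13229, 13245 and 14209 in DMSO and 5205, 4809.8 and 5317 with blebbistatin, and 8639, 8607 and 8426 with Y27632 against 14089.9. Its log2 change was -1.41 (SE 0.04, limma adjusted p = 8.33e-11) with blebbistatin and -0.72 (SE 0.03, adjusted p = 6.2e-09) with Y27632. Tm7sf2, a sterol reductase, had 4309, 4063 and 4219 in DMSO, 2684, 2622 and 2672 with blebbistatin, and 3235, 3322 and 3336 with Y27632 against 4361. Nsdhl, the sterol decarboxylase, had 8719, 8971 and 9012 in DMSO, 5835, 5341 and 5773 with blebbistatin, and 6919, 7195 and 6743 with Y27632 against 9247. These 2 fell by less, to 63.4% and 63.5% of DMSO with blebbistatin.

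Hsd17b7, a ketoreductase of the same complex, separated the agents. It had 6698, 6628 and 6792 in DMSO and 3851, 3562 and 4009.5 with blebbistatin, 56.8% of DMSO. With Y27632 it had 6595, 6252 and 6665 against 6963, 6880.4 and 7058 in DMSO, 93.3%. The Y27632 call (-0.10, SE 0.03, limma adjusted p = 0.0289) was lost without any 1 of the DMSO libraries (adjusted p = 0.0605, 0.0526 and 0.0724 for replicates 1 to 3) and without Y27632 replicate 2 (0.125).

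Of the last 3 enzymes, Ebp, the sterol isomerase, had 2569, 2502 and 2648 in DMSO, 1748, 1646 and 1737 with blebbistatin, and 2349.8, 2426 and 2289 with Y27632 against 2673. Sc5d, the sterol desaturase, had 7989, 7981 and 8211 in DMSO, 4166, 3840.4 and 4335 with blebbistatin, and 6925, 6981 and 6734 with Y27632 against 8375. Dhcr7, which makes cholesterol from its dehydro precursor, had 7357, 7131 and 7376 in DMSO, 3455, 3259.9 and 3518 with blebbistatin, and 4751, 5175 and 4827 with Y27632 against 7572. With blebbistatin they changed by -0.59, -0.97 and -1.10 on the log2 scale, and with Y27632 by -0.18, -0.28 and -0.62. Over both segments, 19 of 19 enzymes were called lower with blebbistatin, with a median of -0.95, and 18 of 19 with Y27632, with a median of -0.52. The shares of all tested genes called lower were 26.9% and 17.8%.

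Among the genes that control SREBP, Insig1 fell with the enzymes while Insig2 and Scap were slightly higher. Insig1, itself a target of SREBP, had 17888, 17542 and 18146 in DMSO and 7367, 7078 and 7613 with blebbistatin, a mean of 17859 ± 303 against 7353 ± 268 (SD, n = 3). It had 10778, 11248 and 10731 with Y27632 against 18596, 18211 and 18857 in DMSO. The log2 change was -1.28 (SE 0.03, limma adjusted p = 3.06e-11) with blebbistatin and -0.77 (SE 0.03, adjusted p = 2.61e-09) with Y27632, the latter the largest fall of any member with that agent. Insig2, its relative, had 1726, 1917 and 1876 in DMSO and 2018, 1966 and 2036 with blebbistatin, and 2431, 2129 and 2307 with Y27632 against 1794, 1990.4 and 1949. Its libraries lay above DMSO in both comparisons, by 0.13 (SE 0.04, limma adjusted p = 0.0304) and 0.26 (SE 0.05, adjusted p = 0.00179). The blebbistatin call of Insig2 was lost without DMSO replicate 1 (adjusted p = 0.125) or blebbistatin replicate 1 (0.0835) or 3 (0.0822), and the authors' deposited table gives it an adjusted p of 0.0647.

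Srebf2 had 11339, 11378 and 10986 in DMSO, 7449.8, 7458 and 7459.6 with blebbistatin, and 9598, 9974 and 10175 with Y27632 against a DMSO mean of 11672. Srebf1 had 5678, 5727 and 5676 in DMSO, 4406, 4446 and 4342 with blebbistatin, and 5007, 5364 and 5136 with Y27632 against 5916. Both fell, Srebf2 to 66.4% and 85.0% of DMSO and Srebf1 to 77.2% and 87.4%, less than most of the enzymes. Scap had 2101, 2128 and 2123 in DMSO, 2412, 2531 and 2335 with blebbistatin, and 2406, 2563 and 2441 with Y27632 against 2199.8. It rose by 0.20 (SE 0.04) and 0.17 (SE 0.04) on the log2 scale. RNA levels do not show how much of either factor was cleaved.

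**Figure D2:**
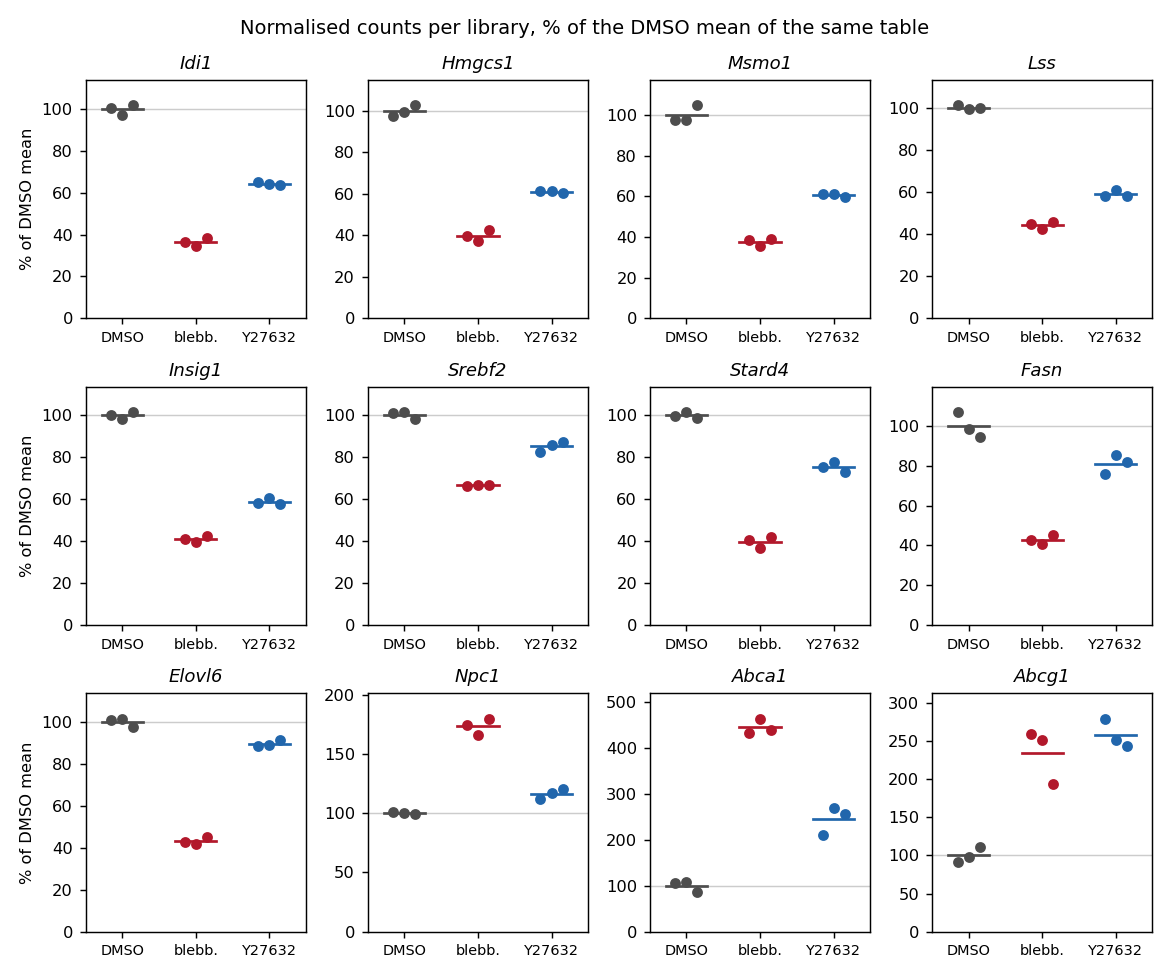
Normalised counts of 12 genes in each library as a percentage of the DMSO mean of the same table (y axis, from 0), for DMSO (grey, as scaled in the blebbistatin table), blebbistatin (red) and Y27632 (blue), 3 libraries each; horizontal bars are means. In the 9 genes that fell the red points lie lowest, at 36.5% for Idi1, and Abcg1 is the only panel in which the red and blue points overlap.

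Sterol transport moved in both directions: 5 of its 8 genes were called higher with each agent, 1 lower, and the LXR receptors were not called. Over all tested genes, 26.1% were called higher and 26.9% lower with blebbistatin, and 18.1% and 17.8% with Y27632. Abca1, which exports cholesterol to apolipoproteins, had 1462, 1467 and 1172 in DMSO and 5905, 6319 and 6004 with blebbistatin, a mean of 1367 ± 169 against 6076 ± 216 (SD, n = 3). With Y27632 it had 2978, 3822 and 3635 against 1519, 1523 and 1218. It rose to 445% of DMSO with blebbistatin and 245% with Y27632, log2 changes of 2.16 (SE 0.07, limma adjusted p = 1.91e-10) and 1.29 (SE 0.09, adjusted p = 2.88e-07). Abcg1, another sterol exporter, had 87.4, 93.8 and 107 in DMSO and 249, 241 and 186 with blebbistatin, and 278, 251 and 243 with Y27632 against 90.8, 97.3 and 111. Its counts were low and more spread, and it rose by 1.22 (SE 0.13) and 1.36 (SE 0.11). Mylip, which marks lipoprotein receptors for breakdown, had means of 838 ± 46.7 in DMSO and 996 ± 24.4 with blebbistatin (SD, n = 3), and of 871 ± 47.8 in DMSO and 1188 ± 34.9 with Y27632 in the other table. It rose by 0.25 and 0.45 on the log2 scale.

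Npc1 and Npc2 together move cholesterol out of the lysosome, and both were higher. Npc1 had 3351, 3316 and 3290.1 in DMSO and 5797, 5515 and 5957 with blebbistatin, and 3849, 4026 and 4142 with Y27632 against a DMSO mean of 3448. It rose by 0.79 (SE 0.04) with blebbistatin and by 0.22 (SE 0.03) with Y27632, and Npc2 by 0.25 and 0.19. Stard4, a cytosolic sterol carrier and an SREBP target, went the other way. It had 8569, 8742 and 8517 in DMSO and 3483, 3145 and 3631 with blebbistatin, and 6723, 6965 and 6546 with Y27632 against 8945. Its log2 change was -1.33 (SE 0.05, limma adjusted p = 2.81e-10) with blebbistatin and -0.41 (SE 0.03, adjusted p = 6.03e-07) with Y27632.

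The LXR receptors themselves were not called. Nr1h2 had 2080.1, 1992 and 2007 in DMSO, 2161, 2283 and 1951 with blebbistatin, and 2183, 2224 and 2156 with Y27632 against 2105, log2 differences of 0.07 (SE 0.05, limma adjusted p = 0.284) and 0.06 (SE 0.04, adjusted p = 0.248). Nr1h3, the lowest member, had 75.5, 96.0 and 75.8 in DMSO, 109, 92.9 and 96.5 with blebbistatin, and 106, 72.6 and 76.5 with Y27632, differences of 0.27 (SE 0.14, adjusted p = 0.123) and -0.02 (SE 0.17, adjusted p = 0.934). Single libraries decided these 2 for blebbistatin, since limma called Nr1h2 without blebbistatin replicate 3 (adjusted p = 0.0267) and Nr1h3 without DMSO replicate 2 (0.0486). Macrophages also carry much Abca1, Abcg1 and Nr1h3, and their markers moved in the same direction: 6 of 6 (Ptprc, Adgre1, Csf1r, Cd68, Lyz2 and Tyrobp, none at 0) were called higher with each agent. Among all tested genes, 26.1% were called higher with blebbistatin and 18.1% with Y27632. The summed normalised counts of these markers were 6137 to 6803 in DMSO, 8823 to 9912 with blebbistatin and 8933 to 10196 with Y27632. Log2 changes of single markers ran from 0.32 to 0.58 with blebbistatin and from 0.22 to 0.63 with Y27632. Their part in the rise of the exporters was not tested.

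In fatty acid and lipid synthesis, 9 of 9 genes were called lower with blebbistatin (median -0.89) and 8 of 9 with Y27632 (median -0.27). For all tested genes these shares were 26.9% and 17.8%. Acly and Acss2 supply the acetyl-CoA, from citrate and from acetate. Acly had 48573, 46508 and 47105 in DMSO and 26022, 24231 and 26574 with blebbistatin, and 31509, 32718 and 32221 with Y27632 against a DMSO mean of 49243. Acss2 had 6664, 6719 and 6582 in DMSO and 3221, 3139.9 and 3214 with blebbistatin, and 5383, 5798 and 5392 with Y27632 against 6915. With Y27632, Acly had the largest fall of the group, -0.61 on the log2 scale, and Acss2 fell by 0.32. Acaca, acetyl-CoA carboxylase, had 4352, 4291 and 3727 in DMSO and 2406, 2266 and 2426 with blebbistatin, and 3634, 4108 and 4097 with Y27632 against 4524, 4455 and 3873. The Y27632 and DMSO libraries of Acaca overlapped, at -0.12 (SE 0.06, limma adjusted p = 0.143), and it was called without DMSO replicate 3 (adjusted p = 0.0101).

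Fasn, fatty acid synthase, had 40353, 37242 and 35631 in DMSO and 16058, 15415 and 16977 with blebbistatin, a mean of 37742 ± 2400.3 against 16150.0 ± 785 (SD, n = 3). It had 29694, 33488 and 32196 with Y27632 against 41951, 38662 and 37028. Fasn fell to 42.8% of DMSO with blebbistatin and to 81.1% with Y27632. Elovl6, which lengthens palmitate, had 7136, 7169 and 6895 in DMSO and 3015, 2940.1 and 3190.0 with blebbistatin, and 6502, 6541 and 6719 with Y27632 against 7342. Scd2, a desaturase, had 104307, 101370.2 and 102889.6 in DMSO and 54351, 50947 and 58273 with blebbistatin, and 86198, 92013 and 87257 with Y27632 against 106866. Elovl6 fell by 1.21 on the log2 scale with blebbistatin and by 0.16 with Y27632, and Scd2 by 0.92 and 0.27. The smallest falls with blebbistatin were those of Lpin1, a phosphatidate phosphatase, Me1, the malic enzyme that supplies NADPH, and Scd1, at -0.46, -0.43 and -0.35, and with Y27632 these 3 changed by -0.37, -0.18 and -0.14. Scd1 and Scd2 are close copies, and how reads shared between them were counted is not given in the sources used here.

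Adipocytes express this group strongly, and their markers were checked beside it. Of 8 adipocyte markers, Cfd was at 0 in every library, and Adipoq, Plin1, Cidec and Lep had at most 4.78 normalised counts in any library. The summed markers, made up mainly of Lpl, lipoprotein lipase, were higher with both agents: 6723 to 6976 in DMSO, 13168 to 14038 with blebbistatin and 8777 to 10178 with Y27632. The 3 tested markers did not share a direction with Y27632. Lpl rose by 1.03 with blebbistatin and 0.51 with Y27632, and Pparg, the adipocyte transcription factor, by 1.57 and 0.88 from low counts of 8.94 to 13.2 in DMSO. Fabp4, a fatty acid binding protein, was at -0.02 with blebbistatin (limma adjusted p = 0.851) and fell by 0.58 with Y27632 (adjusted p = 0.000385). Their part in the changes of the synthesis genes was not tested.

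Compared directly, blebbistatin gave lower levels than Y27632 of most synthesis genes, Fdft1 and Lpin1 not being called, and higher levels of Abca1 and Npc1. This comparison used edgeR on reads recovered from the 9 libraries, normalised together. Of the 41 members, 32 were called lower with blebbistatin than with Y27632, 3 higher and 6 not called, where edgeR called 53.1% of the 14925 genes tested, 26.2% lower and 26.9% higher. The median log2 difference was -0.35 over the members and 0.01 over all genes. Of the 30 members called lower than DMSO with both agents, 28 were also called lower with blebbistatin than with Y27632. The matching share of all genes called lower with both agents was not counted, so the 28 are no result about the members.

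The largest median difference was in fatty acid synthesis. Elovl6 differed by -1.04 (SE 0.03, edgeR adjusted p = 1.71e-11), Fasn by -0.91 (SE 0.05), Acss2 by -0.72 and Acaca by -0.67, with a median of -0.63 over the 9 genes. In the first segment the median was -0.38, with Idi1 at -0.81 (SE 0.04) and Acat2 at -0.81 (SE 0.04). From squalene to cholesterol it was -0.41, with Hsd17b7 furthest at -0.71 and Fdft1 not called at -0.08 (SE 0.04, adjusted p = 0.123). Stard4 differed by -0.91 (SE 0.04) and Insig1 by -0.50 (SE 0.03). Srebf2 and Srebf1 differed by -0.34 and -0.17.

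In the other direction, Abca1 was higher with blebbistatin by 0.87 (SE 0.08, edgeR adjusted p = 6.65e-07) and Npc1 by 0.59 (SE 0.04). Of the 6 macrophage markers, edgeR, DESeq2 and limma each called 0 between the agents, with 0 at an unadjusted p under 0.05, and their log2 differences ran from -0.09 to 0.11. With 3 libraries per group, a lack of calls does not show equal levels. The part of macrophages in the differences of Abca1 and Npc1 was not tested. Abcg1 was not called at -0.13 (SE 0.11, adjusted p = 0.341), and Mylip was lower with blebbistatin at -0.19, so the 3 exporter and ligase genes did not share a direction here. Scap, Lpin1, Nr1h2 and Nr1h3 were not called, with log2 differences of 0.04, -0.08, 0.03 and 0.27. The differences of Npc2 (0.08, adjusted p = 0.0219), Insig2 (-0.12, adjusted p = 0.0495) and Ggps1 (-0.12, adjusted p = 0.0186) were small. Each call was lost on leaving out any 1 of several libraries. Npc2 was not called without any 1 blebbistatin library or without Y27632 replicate 1 or 2 (adjusted p up to 0.0913), and Ggps1 not without Y27632 replicate 1 or 2 (up to 0.0624). Insig2 was not called without DMSO replicate 2 or 3, any 1 blebbistatin library, or Y27632 replicate 1 or 3 (up to 0.237). Conversely, edgeR called Fdft1 and Lpin1 without blebbistatin replicate 3 (adjusted p = 0.0245 and 0.0443) and Nr1h3 without Y27632 replicate 1 (0.0221).

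**Figure D3:**
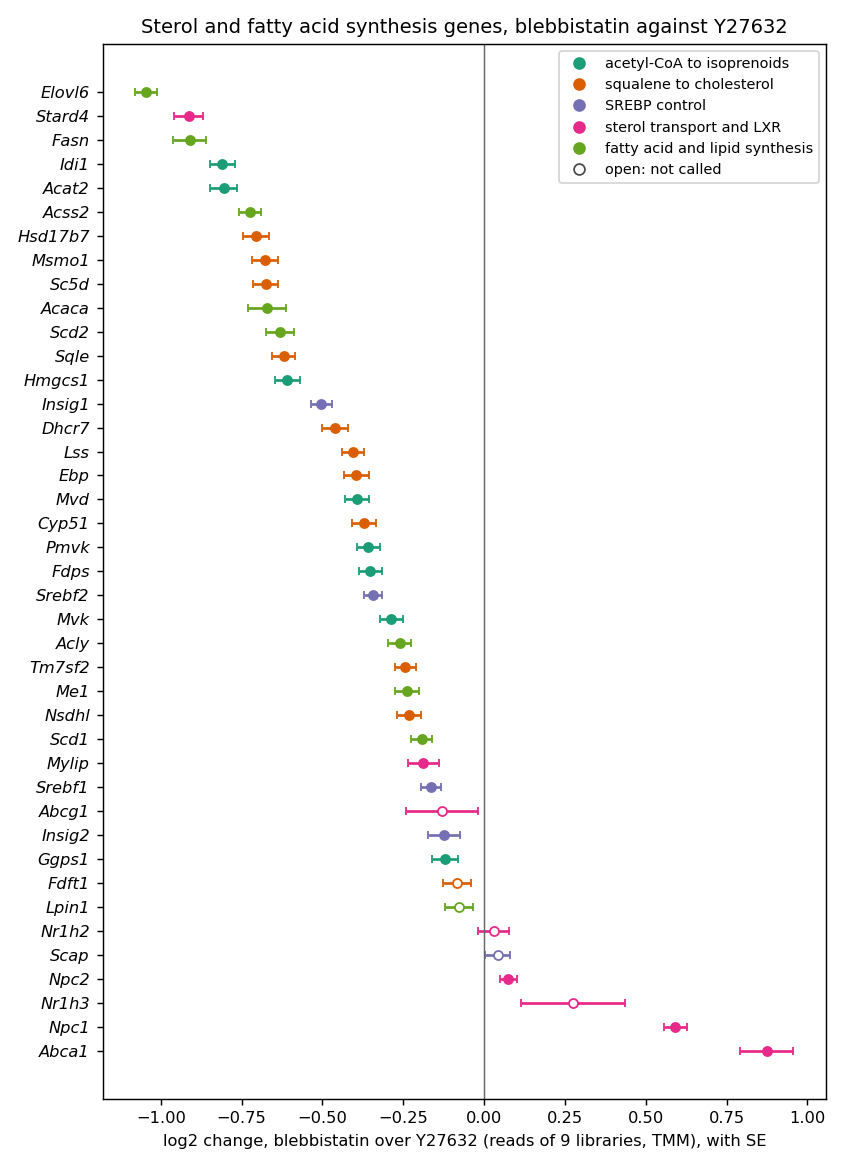
Log2 difference of blebbistatin over Y27632 (x axis, edgeR with TMM normalisation on reads of 9 libraries) for the 41 genes (y axis, sorted), with the standard error; colours give the role and open circles were not called. Elovl6 lies furthest left at -1.04 and Abca1 furthest right at 0.87.

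Around the 41 genes, other genes of the same pathways were counted from lists drawn up for this comparison. Their counts stand beside the shares over all tested genes given above: 26.9% called lower and 26.1% higher with blebbistatin, and 17.8% and 18.1% with Y27632. With so few genes in a list, shares near these are no result about the list. The first list holds 13 genes of isoprenoid use: prenyltransferases, enzymes that process prenylated proteins, and enzymes of dolichol and ubiquinone synthesis. Of these 13, 8 were called lower with blebbistatin and the other 5 were not called, with a median of -0.21. With Y27632, 3 were called lower and 1 higher. The changes were small: the lowest with blebbistatin were Nus1, of dolichol synthesis, at -0.34 and Pggt1b, a subunit of the enzyme that adds geranylgeranyl groups, at -0.33. Of the 10 measured genes of SREBP cleavage and Insig turnover, 8 were called lower with blebbistatin and the other 2 were not called, and 2 were called lower and 2 higher with Y27632. Rnf145, an E3 ligase of the endoplasmic reticulum, was lower with blebbistatin at -0.56 (SE 0.04) and higher with Y27632 at 0.33 (SE 0.03), and edgeR placed it at -0.88 between the agents.

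Of 15 other genes of sterol handling, 8 were called higher and 4 lower with blebbistatin, and 4 higher and 6 lower with Y27632. Soat1, which esterifies cholesterol for storage, had 1319.6 to 1346 normalised counts in DMSO and 2624 to 2647 with blebbistatin, a log2 change of 0.98 (SE 0.04), and rose by 0.23 with Y27632. Nceh1, which hydrolyses cholesterol esters, rose by 0.72 with blebbistatin. The lowest were Osbp, an oxysterol-binding protein, at -0.63 and Tmem97, an SREBP target, at -0.62. With Y27632 the highest were Ch25h, which makes the LXR ligand hydroxycholesterol, at 1.19 (SE 0.23, limma adjusted p = 0.00154) from low counts of 29.8 to 63.3 in DMSO and 85.0 to 121 with Y27632, and Lipa, the lysosomal lipase, at 0.35, and the lowest were Cyp27a1 at -0.40 and Tmem97 at -0.34.

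Of 21 measured genes of fatty acid elongation, desaturation and activation, 15 were called lower and 2 higher with blebbistatin (median -0.43), and 13 lower and 1 higher with Y27632 (median -0.21). Mid1ip1, which promotes acetyl-CoA carboxylase activity, and Fads3, a desaturase family member, were lowest with blebbistatin at -1.20 and -1.11. Acsl1, an acyl-CoA synthetase, and Acacb, the mitochondrial form of acetyl-CoA carboxylase, were lowest with Y27632 at -0.53 and -0.51. Acacb was among the highest with blebbistatin, at 0.58 (SE 0.07), with Elovl4 at 0.54, so Acacb moved opposite to Acaca with that agent.

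**Figure D4:**
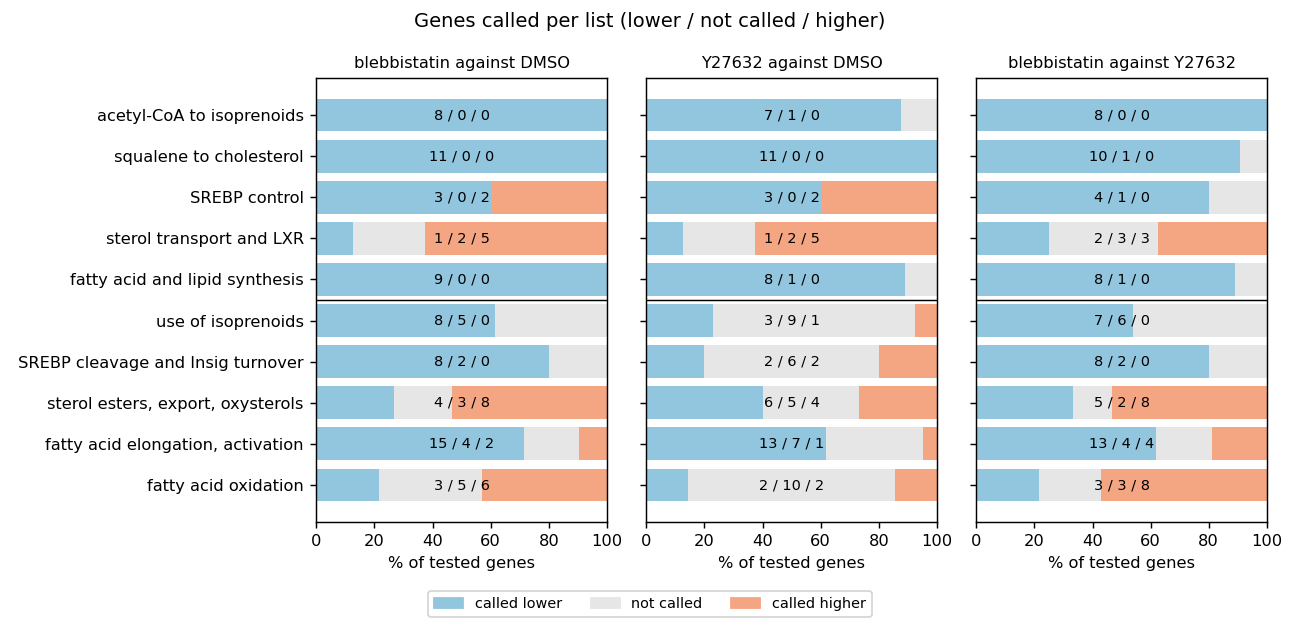
Percentage of tested genes (x axis) called lower, not called and called higher in each list (y axis) for the 3 comparisons; the numbers in the bars are these counts, and the lists above the line are the 41 members. The 3 synthesis lists are entirely lower with blebbistatin, at 8, 11 and 9 genes, and the transport list is mostly higher. Over all tested genes, 26.9% were called lower and 26.1% higher with blebbistatin.

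Chromatin was measured in libraries of its own. The site lists hold the authors' differential sites only, with their deposited log2 folds and FDR. With blebbistatin, 1 of the 970 ATAC sites of the authors' deposited table was annotated to a member, an intergenic site at chr9:86716920-86717096, 21094 bases upstream of the Me1 start, with a deposited log2 fold of -1.58 at an FDR of 0.0127. That is 2.44% of the 41 members, beside 3.49% of the 14882 tested genes with a site in that list. With Y27632, 0 of 207 sites in the authors' deposited table were annotated to a member, beside 0.83% of tested genes. Neither list held a promoter site of any member.

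The site list for doxycycline alone heads its reference column with the group given blebbistatin but no doxycycline, whereas the labels assign that list to the group given neither, so which group its folds are set against rests on the labels. It is read here as the labels give it. In the doxycycline experiment the authors' deposited table listed 10 sites in 7 members, all higher with doxycycline, where 4.2% of its 7613 sites were lower. These were 17.07% of members, beside 24.3% of tested genes. The promoters of Abca1 (deposited log2 fold 1.16), Fasn (1.07), Insig1 (1.05), Nr1h2 (1.04) and Sc5d (1.15) were among them in the authors' deposited table, and the site covered all 300 bases of the promoter window, except in Nr1h2, where it covered 191. The windows of Abca1, Fasn and Insig1 are printed above. A further 2 sites lay upstream of Insig1, 33108 and 28297 bases from its start, with deposited folds of 1.58 and 1.08 in the authors' deposited table. With blebbistatin on top of doxycycline, the authors' deposited table listed 8 member sites, all lower, in Abca1, Insig1, Lpin1, Scap and Stard4 (12.2% of members, beside 17.47% of tested genes), and 99.8% of its 6346 sites were lower. The intron site of Abca1 at chr4:53153554-53153755 was higher with doxycycline, at 1.49, and lower with blebbistatin added, at -1.42, in the authors' deposited tables. There the Insig1 site 28297 bases upstream had 1.08 and -1.02, and the Scap intron site at chr9:110344931-110345088 had 1.04 and -1.19. These 2 comparisons share the doxycycline group without blebbistatin. Without doxycycline, 1 of 1231 sites in the authors' deposited table was annotated to a member, 8264 bases upstream of Stard4 at chr18:33222032-33222219, with a deposited log2 fold of -1.10 at an FDR of 0.0146. That is 2.44% of members, beside 4.3% of tested genes. With 0 to 7 members per list, these shares lie near those of all tested genes, and the differences were not tested.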

How the data were processed

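The submitters' processing notes name the build mm10 and the tools HISAT2, Picard, featureCounts, DESeq2, Bowtie2, SAMtools, MACS2, DiffBind and HOMER, with no roles or versions. In both RNA tables the deposited values are a normalised signal: the authors scaled each library's gene counts by its own size factor, and did so again for the other table. That follows from the numbers, since 100% of nonzero values were whole multiples of one step per library (tolerance 0.01) and the recovered DMSO reads differed between the tables for 0 of 35972 genes. The authors also deposited log2 fold changes and adjusted p-values for the RNA, and log2 group means, log2 folds and FDR values (adjusted p-values) for the sites, per the file headers. Every pair of replicates differed by more than sampling noise (chi-square per gene 2.63 to 8.06). The number of sample columns that matched no label was 0. The site list for doxycycline alone names its reference column after the group with blebbistatin and no doxycycline, and the labels' group, with neither, was used.

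Testing was limited to genes averaging at least 10 normalised counts in a table and used limma 3.58.1 (trend, R 4.3.3) on log2(normalised count + 1), a scale that understates changes of low genes. For blebbistatin against Y27632, the recovered reads went into edgeR 4.0.16 with TMM factors and the quasi-likelihood test. Adjusted p-values are Benjamini-Hochberg values over all genes tested; scripts were tested on simulated data. The members, the other gene lists and the comparisons were chosen with earlier results of these data known. Members called with an absolute log2 change of at least 0.5 against DMSO, and the regulators Srebf1, Srebf2, Scap, Insig1, Insig2, Nr1h2 and Nr1h3, are given with the value of every library; of the other pathway lists, the 2 highest and 2 lowest called genes per comparison may be named. Ufd1 was not found in the tables by that symbol. Sites were assigned to genes by the authors' annotation, and no depth is known for them. Promoter windows came from RefSeq (GRCm38.p6, the assembly of mm10). Alternatives were the pseudocount, the filter, DESeq2 1.42.0, edgeR, a replicate block, a stricter threshold and leaving out each library.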

Additional observations from a re-analysis of the deposited data

How the results depend on the processing

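Counts of members called changed little over the alternatives: 31 to 32 lower and 6 to 8 higher with blebbistatin, 29 to 30 lower and 7 higher with Y27632, and 30 to 33 lower and 2 to 3 higher between the agents. The median log2 change ran from -0.84 to -0.77, from -0.33 to -0.29 and from -0.39 to -0.34 in the same order. Of 123 results of a member in a comparison, 108 kept their sign and their side of the threshold throughout. The other 15 concern Ggps1, Insig2, Hsd17b7, Npc2, Acaca, Fdft1, Lpin1, Nr1h2 and Nr1h3, all with a main log2 change of at most 0.27 in size. Signs reversed for uncalled genes near 0: Nr1h3 with Y27632 had 0.0045 by edgeR and -0.1885 to 0.0915 without 1 library, Ggps1 with Y27632 had -0.0072 to 0.0279 without 1 library, and Nr1h2 between the agents had -0.0308 to 0.0819 without 1 library. The cause was not tested. Over all genes, an adjusted p under 0.01 left 3479 calls with Y27632 against 5328 at 0.05. An FDR of at most 0.01 left 0 member sites in the ATAC blebbistatin list and 0 in that of blebbistatin alone in the doxycycline experiment, and a distance of at most 50000 bases left 4 member sites with blebbistatin and doxycycline. The looser sterol element, added after the first search, matched 10 members against 1. Replicate numbers did not pair the libraries: correlations of same-numbered deviations ran from -0.08 to 0.05. With the replicate as a block, limma called 38 members with blebbistatin and 36 with Y27632, losing Ggps1 and Hsd17b7 (adjusted p = 0.0575 and 0.0532), and edgeR called 34 between the agents, losing Insig2 (0.0706).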

Other observations

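Of 14 listed genes of fatty acid oxidation, the pathway opposite to synthesis, 6 were called higher, 3 lower and 5 not called with blebbistatin, where 26.1% of all tested genes were called higher and 26.9% lower. With Y27632, 2 were higher, 2 lower and 10 not called, where 18.1% and 17.8% of all tested genes were. The share called lower was thus near that of all genes. Ppargc1a, a coactivator of mitochondrial genes, rose by 1.60 on the log2 scale with blebbistatin (limma adjusted p = 1.46e-06). Its counts were low, at 38.7 to 43.0 in DMSO and 110 to 137 with blebbistatin. Cpt1a, which admits fatty acids to mitochondria, rose by 0.65 with blebbistatin (limma adjusted p = 2.15e-08). The lowest with blebbistatin were Hadhb at -0.17 and Acadvl at -0.14. Cpt1a was lower with Y27632, at -0.18 (adjusted p = 0.00357), and edgeR placed the agents 0.84 apart for it and 1.36 apart for Ppargc1a.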
